A study of Mus musculus with 42 samples.

Results

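The 10 genes described here belong to the Lin28, Myc and let-7 axis of stem cells. They are the RNA-binding proteins Lin28a and Lin28b, the transcription factors Myc, Mycn and Mycl, the chromatin proteins Hmga1 and Hmga2, and the mRNA-binding proteins Igf2bp1, Igf2bp2 and Igf2bp3. They were picked by gene symbol from a table of 18825 genes in experiment 1 and of 19866 genes in experiment 2. All 10 were present in both tables and passed the filter on low counts in both.

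RNA immunoprecipitation sequencing (RIP-seq) recovers the RNA that is bound, directly or through partners, to a tagged protein. Here the protein was Tnrc6a, which carried an HA-AVI tag and was captured with anti-HA beads from lysates of mouse embryonic stem cells of the 129S6/SvEvTac background. RNA from the beads (IP) and from the lysate (input) was sequenced in 42 libraries, as 14 groups of 3, in 2 experiments. All cells of both experiments carried the reporter GFP_5xT71BS (yGlob) and a stably transfected FLAG-Cas9, and were grown with LIF on gelatin. The untagged control had no further change. The tagged cells carried HA-AVI-Tnrc6a, the cells labelled Trim71KO carried HA-AVI-Tnrc6a and were Trim71-/-, and the cells labelled Ago2KO, present in experiment 2 only, carried HA-AVI-Tnrc6a and were Ago2-/-. The labels give triplicate cultures and do not say whether a knockout line is 1 clone, so the p-values measure the spread between cultures and not between independently derived lines.

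Lin28 proteins bind the precursors of let-7 microRNAs in stem cells and block their maturation. Where let-7 matures, Argonaute proteins such as Ago2 carry it to mRNAs that match its seed, and GW182 proteins, of which Tnrc6a is a member, link Argonaute to the enzymes that shorten poly(A) tails and repress translation. Lin28, Myc, Hmga2 and Igf2bp genes are textbook let-7 targets, so the axis is often drawn as a loop in which Lin28 and let-7 restrain each other and Myc and the Igf2bp proteins act downstream. Trim71 (Lin41) is itself a let-7 target and an RNA-binding repressor of stem cells, and the study asked how mRNA repression by Trim71 and by Argonaute meets on Tnrc6.

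The seed is the part of a microRNA that selects these mRNAs, and the let-7 sequences are shown because the 10 genes are grouped by their tie to it. In the RefSeq table of GRCm38.p6, 11 mature mouse microRNAs shared the let-7 seed GAGGUAG. The first 5 sequences here, written 5′ to 3′ with the seed (bases 2 to 8) in capitals, differ from each other only outside the seed. The last 3 are shown for contrast, and of these miR-291a and miR-294 are known to be abundant in embryonic stem cells. All 3 carry the seed AAGUGCU, which was shared by 5 mature sequences of the table.
mmu-let-7a-5p: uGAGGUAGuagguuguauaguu
mmu-let-7b-5p: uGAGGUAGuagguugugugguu
mmu-let-7e-5p: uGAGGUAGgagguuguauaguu
mmu-let-7g-5p: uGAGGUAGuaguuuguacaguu
mmu-miR-98-5p: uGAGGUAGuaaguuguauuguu
mmu-miR-291a-3p: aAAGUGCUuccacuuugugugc
mmu-miR-294-3p: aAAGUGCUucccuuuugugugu
mmu-miR-302b-3p: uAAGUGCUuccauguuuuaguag
The listed let-7a copy lies at chr13:48538239-48538260 on the minus strand and let-7b at chr15:85707325-85707346 on the plus strand. miR-291a lies at chr7:3218968-3218989 and miR-294 at chr7:3220691-3220712, both on the plus strand. Mature microRNAs were not measured in these libraries, and target sites in the 10 mRNAs were not searched.

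Total counts per library were 12587257 to 23657840 in experiment 1 and 16296447 to 21026552 in experiment 2. Tnrc6a RNA was 294 times as high in IP as in input of tagged cells in experiment 1 and 206 times in experiment 2, against 0.907 and 0.863 times in untagged cells. In cells labelled Trim71KO it was 162 and 157 times as high in experiments 1 and 2, and in cells labelled Ago2KO 181 times. The part of these lower Tnrc6a ratios in the knockout comparisons of the 10 genes was not tested. Ago2 input RNA was 353 ± 34.9 CPM (SD, n = 3) in tagged cells and 162 ± 4.76 CPM in cells labelled Ago2KO. Trim71 input RNA was higher, not lower, in cells labelled Trim71KO (282 ± 3.18 against 241 ± 21.2 CPM in experiment 1, and 377 ± 9.61 against 282 ± 23.5 CPM in experiment 2), so its RNA level does not check that label, and each direction given for these libraries rests on the label. The unit CPM is a count scaled to a common library size after TMM normalization. All 10 embryonic stem cell markers were measured in both experiments, with a summed level of 6639 to 8782 CPM over the input libraries.

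In input RNA of the tagged cells, levels per kilobase of gene length spanned more than 2 orders of magnitude, from Hmga1 down to Lin28b. In experiment 1 Hmga1 was at 236 ± 7.69 CPM per kilobase (SD, n = 3) and Lin28b at 1.09 ± 0.0518. Lin28a, the predominant Lin28 gene here, came second at 66.6 ± 2.17 CPM per kilobase, followed by Igf2bp1 at 41.1 ± 6.57, Mycn at 33.8 ± 1.18 and Igf2bp2 at 17.5 ± 0.824. Below them stood Myc at 16.2 ± 0.533, Igf2bp3 at 7.65 ± 0.608, Hmga2 at 3.33 ± 0.463 and Mycl at 2.59 ± 0.301. In experiment 1 no 2 neighbours in this order overlapped between libraries, although the lowest Igf2bp1 library (34.6) and the highest Mycn library (34.5) all but met.

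In experiment 2 the order from Hmga1 to Igf2bp2 was the same, at 211 ± 11.7 CPM per kilobase for Hmga1, 59.1 ± 3.56 for Lin28a, 38.6 ± 1.44 for Igf2bp1, 34.1 ± 1.12 for Mycn and 27.9 ± 0.551 for Igf2bp2. Igf2bp3 followed at 9.86 ± 0.601, then Mycl at 4.95 ± 0.492 and Myc at 4.91 ± 0.798, whose libraries overlapped. Hmga2 (2.14 ± 0.207) and Lin28b (0.988 ± 0.191) were lowest. Myc changed place between the experiments because its level in tagged input was 43.9 ± 1.45 CPM in experiment 1 and 13.3 ± 2.17 CPM in experiment 2. Hmga1 values are uncertain, since the near-identical copy Hmga1b on chromosome 11 has its own row, at 0.649 to 0.753 of the Hmga1 count in experiment 1 and 0.629 to 0.678 in experiment 2, and how reads were divided between copies is not given in the sources used here.

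**Figure D1:**
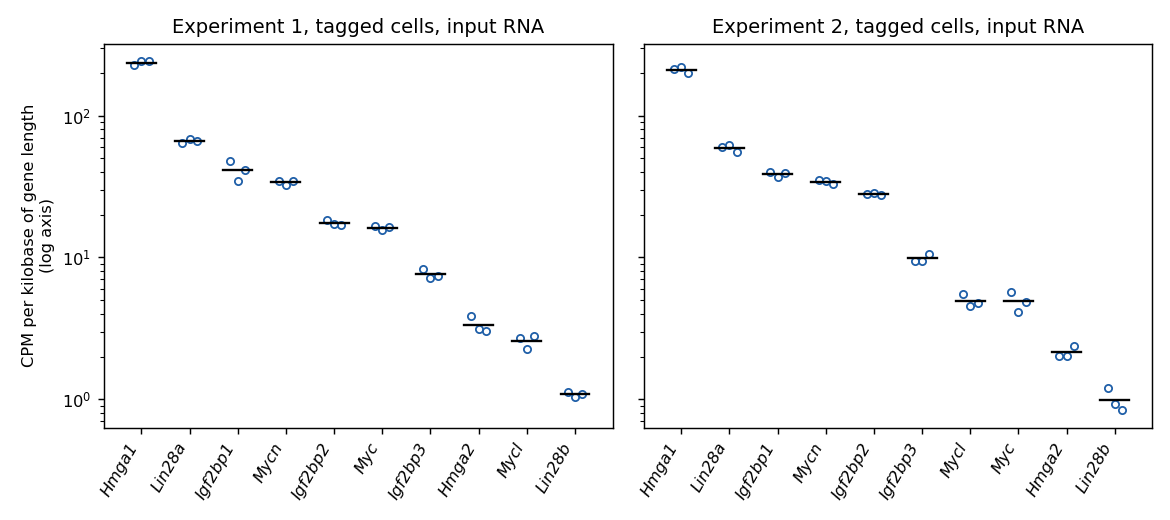
Level of each of the 10 genes in input RNA of tagged cells, in CPM per kilobase of gene length on a log axis; points are the 3 libraries and lines their means, genes in order of the mean. Hmga1 was highest and Lin28b lowest in both experiments, and Myc stood at 16.2 CPM per kilobase in experiment 1 and 4.91 in experiment 2.

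Bound RNA was compared as the IP to input ratio of tagged cells over that of untagged cells, which removes what the beads retain without the tag. 6 of the 10 genes were enriched with tagged Tnrc6a in both experiments, namely Lin28a, Lin28b, Mycn, Mycl, Igf2bp1 and Igf2bp3. The share of all genes enriched in both was not counted. Mycn was enriched 4.73-fold and 3.04-fold, Igf2bp1 4.00-fold and 2.43-fold, and Lin28a 3.47-fold and 2.01-fold in experiments 1 and 2. Myc and Igf2bp2 were called lower with the tag in experiment 1 and did not pass the edgeR test in experiment 2, and Hmga1 and Hmga2 did not pass it in either experiment.

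Of the 10 genes, 6 were called higher in experiment 1, where 28.1% of all genes tested were, and 2 were called lower, where 28.8% of all genes were. In experiment 2, 6 were called higher and 0 lower, against 18.9% and 8.77% of all genes. The median log2 change over the 10 genes was 0.62 in experiment 1 and 0.55 in experiment 2, beside -0.10 and -0.03 over all genes. With library size alone as scaling, the median of all genes in experiment 2 was -0.24 and 36.5% of called genes were higher, against 68.4% with TMM. Under that scaling 5 of the 10 genes were called higher and 2, Hmga1 (-0.26) and Igf2bp2 (-0.28), lower, and Igf2bp3 was not called.

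Lin28a (chr4:134003330-134019196, GRCm38.p6), which blocks let-7 maturation in the cytoplasm, gave 974, 700 and 791 CPM in the IP of tagged cells in experiment 1, against 218, 199 and 219 CPM in the IP of untagged cells. Tagged input held 258, 275 and 266 CPM and untagged input 234, 241 and 240 CPM. All 3 tagged IP libraries lay far above every other Lin28a library of these 4 groups. The tag-specific change was 1.80 on the log2 scale (SE 0.17, edgeR adjusted p = 3.8e-09).

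In experiment 2 Lin28a was at 480, 439 and 429 CPM in tagged IP and at 210, 235 and 248 CPM in untagged IP, with inputs between 221 and 248 CPM. The tagged IP again stood clear of the other groups, with a log2 change of 1.01 (SE 0.10, edgeR adjusted p = 2.6e-09).

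Lin28b (chr10:45376617-45486314), the paralog best known for blocking let-7 in the nucleus, was scarce, with 151 to 353 counts per library over the input and IP libraries of untagged and tagged cells. In experiment 1 its tagged IP held 26.9, 24.1 and 25.5 CPM and its untagged IP 12.7, 13.9 and 11.1 CPM, with tagged input at 10.3, 9.35 and 9.93 CPM. The tagged IP did not overlap the others, and the change was 0.90 (SE 0.20, edgeR adjusted p = 0.00046). In experiment 2 the tagged IP (12.7, 11.5 and 12.9 CPM) overlapped the untagged input (11.3, 13.1 and 10.9 CPM), while the tagged input held 10.9, 8.38 and 7.60 CPM and the untagged IP 11.2, 8.35 and 10.5 CPM. Its tag-specific change there was 0.70 (SE 0.19, edgeR adjusted p = 0.0057). Lin28a kept a mean of 97.4 to 99.1% of the per-kilobase Lin28 reads in each of the 14 groups.

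Mycn (chr12:12936093-12941836), the Myc family member that predominates in embryonic stem cells, had the largest tag-specific change of the 10 genes in both experiments. In experiment 1 its tagged IP held 712, 572 and 730 CPM, against 133, 144 and 133 CPM in untagged IP and 107 to 114 CPM in tagged input. The groups were far apart, and the change was 2.24 (SE 0.15, edgeR adjusted p = 5.8e-12). The tagged IP of experiment 2 held 436, 370 and 316 CPM against 108, 108 and 122 CPM in untagged IP and 108 to 115 CPM in tagged input. The change was 1.61 (SE 0.15, edgeR adjusted p = 1.1e-09).

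Myc (chr15:61985341-61990361), the founding member of the family and a driver of growth and of Lin28b transcription, went the other way in experiment 1. Its tagged IP held 34.9, 34.4 and 45.5 CPM and its tagged input 45.2, 42.3 and 44.2 CPM, whereas its untagged IP held 58.1, 60.4 and 52.3 CPM, above the untagged input of 37.9, 40.2 and 33.3 CPM. The untagged IP was thus the highest of the 4 groups, and the tag-specific log2 change was -0.81 (SE 0.16, edgeR adjusted p = 0.00017). Across experiment 2 the 4 groups overlapped between 10.4 and 19.1 CPM, and the change was 0.07 (SE 0.23, edgeR adjusted p = 0.85).

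Mycl (chr4:122995588-123002490), the third family member, rose with the tag in both experiments. Tagged IP held 25.2, 21.4 and 26.8 CPM in experiment 1 against 15.5, 18.3 and 14.2 CPM in untagged IP, and 32.5, 27.2 and 30.7 CPM in experiment 2 against 19.9, 18.8 and 19.3 CPM. These groups did not overlap, and the changes were 0.96 (SE 0.19, edgeR adjusted p = 0.00017) and 0.71 (SE 0.14, edgeR adjusted p = 0.00028). Within the family, Mycn made up 64.3 ± 0.269% of the per-kilobase reads in tagged input and 91.0 ± 0.784% in tagged IP of experiment 1, and 77.6 ± 2.11% and 89.5 ± 1.08% in experiment 2. The Myc share was 30.7 ± 0.356% in tagged input and 6.30 ± 0.739% in tagged IP of experiment 1, and 11.1 ± 1.45% against 4.53 ± 0.339% of experiment 2, with no overlap of libraries in either. The share of Mycl, though enriched, also fell, from 4.91 ± 0.401% to 2.71 ± 0.0602% and from 11.3 ± 0.672% to 5.96 ± 0.902%. A share falls where Mycn rises, so a lower share does not show a lower level.

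Igf2bp1 (chr11:95957163-96005944), which binds and stabilises mRNAs including Myc mRNA, gave 1538, 1338 and 1663 CPM in tagged IP of experiment 1. Its untagged IP held 425, 425 and 426 CPM, and its tagged input 462, 335 and 397 CPM, a wider spread than in any other group of its input libraries. The change was 2.00 (SE 0.16, edgeR adjusted p = 2.5e-10). In experiment 2 the tagged IP held 1040, 827 and 726 CPM, the untagged IP 339, 349 and 384 CPM, and the change was 1.28 (SE 0.14, edgeR adjusted p = 2.7e-08). The microRNA gene Mir3063 lies inside the span of Igf2bp1, at chr11:95963292-95963383, and its IP to input ratio in tagged cells was 2.62 and 1.83, beside 3.80 and 2.31 for Igf2bp1. Reads of the 2 genes may be shared.

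Igf2bp2 (chr16:22059009-22163299) and Igf2bp3 (chr6:49085218-49215469), paralogs with the same RNA-binding domains, had smaller changes than Igf2bp1; the difference between paralogs was not tested. Igf2bp3 was enriched, at 73.7, 88.9 and 81.4 CPM in tagged IP of experiment 1 against 68.9, 68.0 and 68.1 CPM in untagged IP. The change was 0.34 (SE 0.12, edgeR adjusted p = 0.019) in experiment 1 and 0.41 (SE 0.09, edgeR adjusted p = 0.00088) in experiment 2. The call of experiment 1 was lost without tagged IP replicate 2 (0.27) and with input and IP of one number as a block (0.34).

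Igf2bp2 held 92.5, 105 and 101 CPM in tagged IP of experiment 1, below all 3 libraries of tagged input (137, 126 and 126 CPM) and of untagged IP (133, 131 and 136 CPM). The change was -0.34 (SE 0.12, edgeR adjusted p = 0.017), and the call was kept in 8 of 12 fits that left out 1 library. In experiment 2 the change was -0.08 (SE 0.07, edgeR adjusted p = 0.46), and the difference between the experiments, 0.16 in the joint fit described after these genes, did not pass the test. Igf2bp1 made up 61.8 ± 2.75% of the per-kilobase Igf2bp reads in tagged input and 86.9 ± 1.91% in tagged IP of experiment 1, and 50.6 ± 1.13% and 70.8 ± 3.90% in experiment 2.

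Hmga1 (chr17:27556574-27563672) and Hmga2 (chr10:120361268-120476469), which bend AT-rich DNA, did not pass the edgeR test of tag-specific enrichment. Hmga1, the most abundant of the 10 per kilobase, held 495, 484 and 448 CPM in tagged IP and 483, 512 and 512 CPM in tagged input of experiment 1, which overlapped. Its change was 0.22 (SE 0.12, edgeR adjusted p = 0.12) in experiment 1 and -0.05 (SE 0.08, edgeR adjusted p = 0.70) in experiment 2. Hmga1 was called higher in experiment 1 by DESeq2 (0.25) and without untagged IP replicate 1 (0.32). Hmga2, the classical let-7 target, was 1.75 times as high in IP as in input of tagged cells in experiment 1, but also 1.62 times in untagged cells. Its tagged IP (43.4, 40.5 and 34.1 CPM) and untagged IP (38.3, 40.9 and 32.7 CPM) overlapped, and its tag-specific change was 0.11 (SE 0.18, edgeR adjusted p = 0.62), and 0.18 (SE 0.14, edgeR adjusted p = 0.38) in experiment 2.

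**Figure D2:**
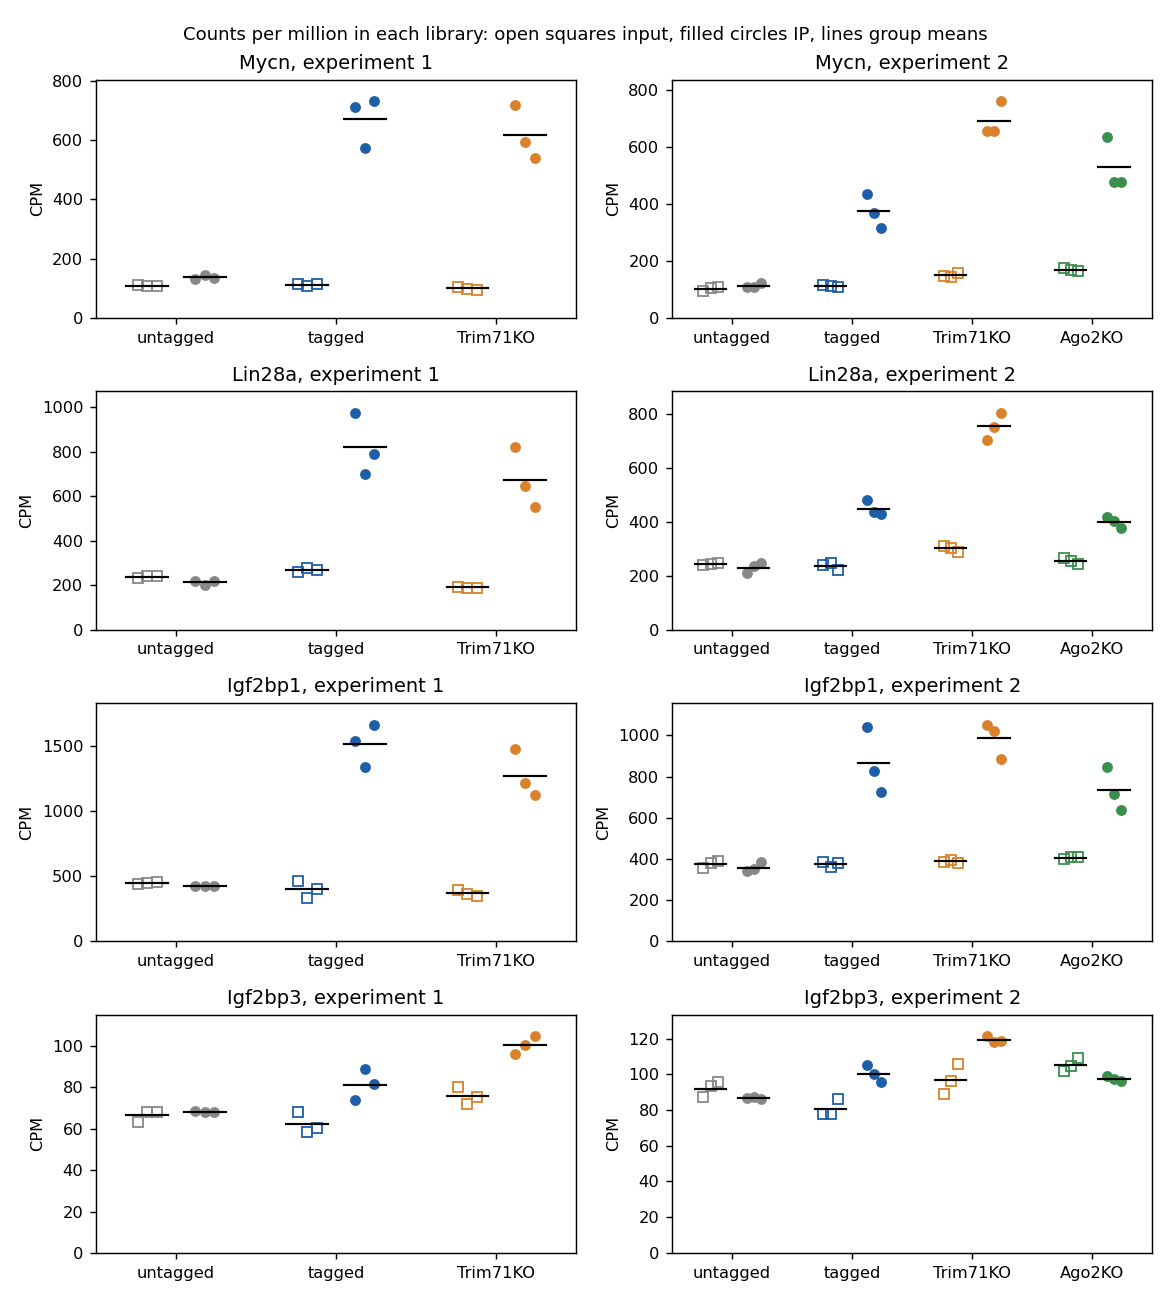
CPM of Mycn, Lin28a, Igf2bp1 and Igf2bp3 in every library, by genotype; open squares are input, filled circles IP, and lines the means of 3 libraries, on a linear axis from 0. The tagged IP of Mycn (572 to 730 CPM in experiment 1) stands far above untagged IP (133 to 144 CPM), while that of Igf2bp3 (73.7 to 88.9 CPM) lies close to its inputs.

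The enrichment of the leading genes was smaller in experiment 2. In a fit of both experiments together, added after the data were seen, the tag-specific change in experiment 2 minus that in experiment 1 was -0.89 for Lin28a (SE 0.20, edgeR adjusted p = 0.00089), -0.74 for Mycn (SE 0.22, edgeR adjusted p = 0.0098) and -0.82 for Igf2bp1 (SE 0.22, edgeR adjusted p = 0.0055). It was -0.38 for Hmga1 (SE 0.13, edgeR adjusted p = 0.028) and 0.79 for Myc (SE 0.30, edgeR adjusted p = 0.046). The differences for Lin28b, Mycl, Hmga2, Igf2bp2 and Igf2bp3 did not pass the test. These are 5 of 10 genes, where 28.5% of all genes passed in that fit.

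Other genes of the pathway, from lists written with earlier results of these data known, moved in both directions. Of all genes tested, 28.1% rose and 28.8% fell with the tag in experiment 1, and 18.9% rose and 8.77% fell in experiment 2. Of 9 genes of the Max network, the dimer partners and antagonists of Myc, 6 rose with the tag in each experiment and 0 fell. Mxi1, a Myc antagonist, changed by 3.64 (SE 0.13) and 2.35 (SE 0.13), Mnt by 2.89 (SE 0.16) and 2.00 (SE 0.13), and Mxd1 by 3.12 (SE 0.30) and 1.99 (SE 0.31) on the log2 scale. The median of this list was 2.10 in experiment 1 and 1.36 in experiment 2, beside -0.10 and -0.03 over all genes. With library size alone, 5 rose and 1 fell in experiment 2.

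Of 19 other reported let-7 targets tested in experiment 1, 13 rose and 3 fell, and of 20 in experiment 2, 12 rose and 1 fell. The transcription factor Plagl2 changed by 5.87 (SE 0.21) and 4.67 (SE 0.31), and the cell-cycle factor E2f5 by 2.97 (SE 0.15) and 2.27 (SE 0.15). The median of this list was 1.07 and 0.52, beside -0.10 and -0.03 over all genes. Of 12 let-7 regulators and processing factors, 5 rose and 5 fell in experiment 1, and 2 rose and 3 fell in experiment 2. Trim71 led them with 2.42 (SE 0.12) and 1.41 (SE 0.12), and Hnrnpa1, which binds primary microRNAs, fell by 1.17 (SE 0.18) and 0.32 (SE 0.08) on the log2 scale. Of 12 growth genes known to respond to Myc, 11 fell in experiment 1 and 4 in experiment 2, and 0 rose in either. Of all genes, 28.8% and 8.77% fell in experiments 1 and 2. With library size alone 11 of the 12 growth genes fell in experiment 2. The nucleolar proteins Fbl (-1.38, SE 0.24, and -0.37, SE 0.11) and Npm1 (-1.25, SE 0.22, and -0.29, SE 0.08) were among them in both experiments.

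Loss of Trim71 was compared as the IP to input ratio of cells labelled Trim71KO over that of tagged cells. None of the 10 genes lost Tnrc6a association in either experiment by this test, and 1, Lin28a, gained it in experiment 2. In experiment 1, 0 of 10 were called, against 0.272% of all genes higher and 3.47% lower; DESeq2 also called 0, and 2 genes, Mycl (-0.41, SE 0.20) and Hmga2 (-0.52, SE 0.19), had an unadjusted p under 0.05. Without Trim71KO IP replicate 1, Hmga2 was called lower (-0.59). In experiment 2, 1 was called higher, against 0.753% of all genes, and 0 lower, against 0.738%. The split of called genes into higher and lower moved with the scaling, from 7.25% higher with TMM to 24.6% with library size alone in experiment 1, where the median of all genes moved from -0.04 to 0.07, and from 50.5% to 75.7% in experiment 2 (38.6% with RLE).

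Lin28a in experiment 2 held 705, 754 and 804 CPM in IP of the libraries labelled Trim71KO, against 480, 439 and 429 CPM in tagged IP. Its input held 310, 305 and 290 CPM against 240, 248 and 221 CPM. Both fractions were higher without overlap, the IP by more, so that the IP to input ratio was 2.50 against 1.90 and its log2 change 0.40 (SE 0.10, edgeR adjusted p = 0.033). This call was weak. It was kept in 3 of 12 fits that left out 1 library, with changes of 0.31 to 0.44, and it was lost without the filter on low counts (0.37) and when only the groups compared were fitted (0.40). In experiment 1 Lin28a changed by 0.20 (SE 0.17, edgeR adjusted p = 0.64), with the libraries labelled Trim71KO at 824, 647 and 550 CPM in IP, of which 824 CPM lay within the range of tagged IP and the others below it, and at 193, 189 and 187 CPM in input, below all tagged inputs.

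Mycn changed by 0.48 in experiment 2 (SE 0.14, edgeR adjusted p = 0.095) and by 0.05 in experiment 1 (SE 0.15, edgeR adjusted p = 0.93). The Mycn IP of experiment 2 held 658, 657 and 761 CPM in libraries labelled Trim71KO and 436, 370 and 316 CPM in tagged cells, which did not overlap. Mycn was called higher with input and IP of one number as a replicate block (0.49), with library size alone (0.54) and without tagged IP replicate 1 (0.60). Igf2bp1 changed by -0.14 (SE 0.16) and 0.14 (SE 0.14) in experiments 1 and 2, and Igf2bp3 by 0.02 (SE 0.12) and -0.02 (SE 0.09). For these genes a missed threshold does not show that the ratios were equal. The difference between the experiments in this Trim71 effect passed the joint test for 0 of the 10 genes, where 0.0967% of all genes passed; 3 of them, Mycn, Mycl and Hmga2, had an unadjusted p under 0.05.

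Loss of Ago2 was compared in the same way in experiment 2. Igf2bp3 was the 1 gene of the 10 that was called, lower in cells labelled Ago2KO, where 3.77% of all genes were lower; 0 were called higher, where 0.384% of all genes were. Its log2 change was -0.43 (SE 0.09, edgeR adjusted p = 0.0036). Igf2bp3 held 99.2, 97.2 and 96.1 CPM in the IP of cells labelled Ago2KO and 105, 100 and 95.6 CPM in tagged IP, which overlapped. Its input held 102, 104 and 109 CPM against 77.6, 77.5 and 86.1 CPM, without overlap, so the ratio was lower through a higher input at a like IP level. With library size alone, the median of all genes moved from 0.00 to 0.11, 26.1% of called genes were higher against 9.25% with TMM, and the Igf2bp3 call was lost (-0.32).

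The other members did not pass the test of Ago2 loss. Igf2bp1 changed by -0.35 (SE 0.14, edgeR adjusted p = 0.20), with 847, 716 and 638 CPM in IP of cells labelled Ago2KO, overlapping the tagged IP. Lin28a changed by -0.27 (SE 0.10, edgeR adjusted p = 0.14), with 420, 404 and 378 CPM in IP, below all 3 tagged IP libraries. Both were called lower without tagged IP replicate 3 (-0.50 and -0.33), and Igf2bp1 also without Ago2KO IP replicate 1 (-0.47). Mycn, the most enriched of the 10, changed by -0.09 (SE 0.14, edgeR adjusted p = 0.89): its input (177, 167 and 164 CPM) and its IP (637, 477 and 476 CPM) were both above those of tagged cells, without overlap.

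**Figure D3:**
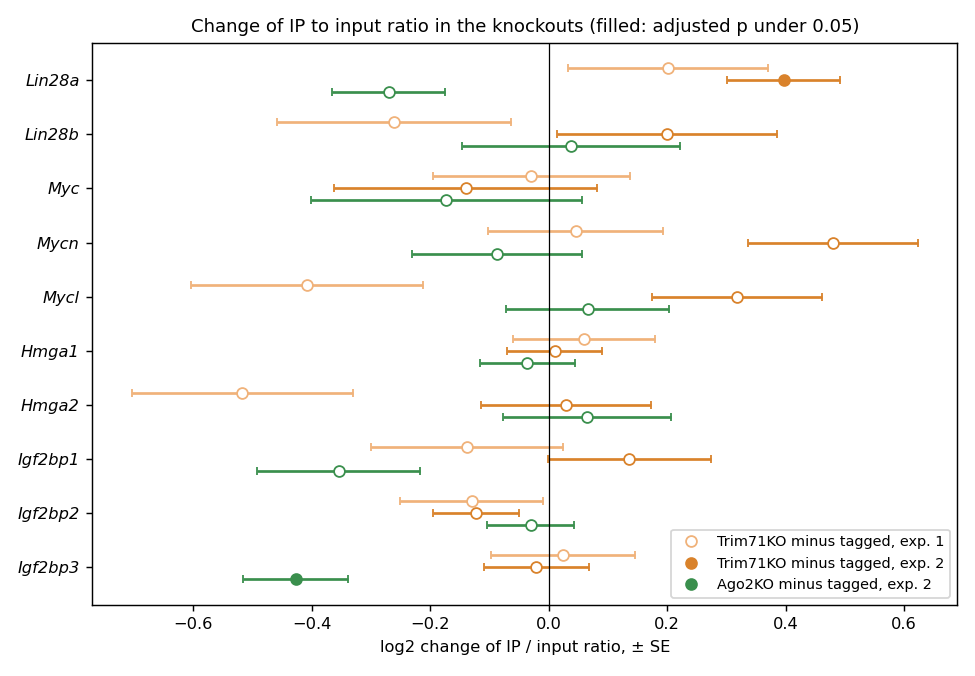
Log2 change of the IP to input ratio, ± SE, of each of the 10 genes in cells labelled Trim71KO (both experiments) and Ago2KO (experiment 2), each minus tagged cells; filled points passed an edgeR adjusted p under 0.05. Only Lin28a (0.40, Trim71KO, experiment 2) and Igf2bp3 (-0.43, Ago2KO) are filled, and the comparisons of experiment 2 share the tagged libraries.

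The 2 knockouts were then compared directly, which does not use the tagged libraries. In experiment 2 the IP to input ratio was higher in cells labelled Trim71KO than in cells labelled Ago2KO for 4 of the 10 genes, Lin28a, Mycn, Igf2bp1 and Igf2bp3, where 8.94% of all genes were higher. 0 were lower, where 2.86% of all genes were. Lin28a differed by 0.67 (SE 0.10, edgeR adjusted p = 1.9e-05), with ratios of 2.50 and 1.58, and its 3 IP libraries labelled Trim71KO (705 to 804 CPM) lay above those labelled Ago2KO (378 to 420 CPM). Mycn differed by 0.57 (SE 0.14, edgeR adjusted p = 0.0085), with ratios of 4.64 and 3.13. Igf2bp1 differed by 0.49 (SE 0.14, edgeR adjusted p = 0.019), with ratios of 2.54 and 1.81. Igf2bp3 differed by 0.41 (SE 0.09, edgeR adjusted p = 0.0024), with ratios of 1.23 and 0.928.

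The calls of Lin28a and Igf2bp3 were kept in all 12 fits that left out 1 library, that of Mycn in 11 and that of Igf2bp1 in 6. Without Ago2KO IP replicate 2, 2 of the 10 genes were called, and Mycn was at 0.46 and Igf2bp1 at 0.43. Among the other let-7 targets 8 of 20 were higher and 1 lower in this comparison, led by E2f5 (1.34, SE 0.15), and Tent2, a let-7 tailing enzyme, differed by 0.57 (SE 0.12).

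Enrichment over untagged cells was also tested within each knockout. In cells labelled Trim71KO, 7 of 10 were higher in experiment 1 (25.6% of all genes) and 2 lower (29.3%), and 6 were higher in experiment 2 (23% of all genes) and 1 lower (15.7%). The 7 included Hmga1 (0.28, SE 0.12, edgeR adjusted p = 0.049), a call lost with either replicate block. Its IP to input ratio was 0.987 in cells labelled Trim71KO and 0.812 in untagged cells of experiment 1. Mycn stood at 2.29 (SE 0.15) and 2.09 (SE 0.15), Lin28a at 2.00 (SE 0.17) and 1.41 (SE 0.10), and Igf2bp1 at 1.86 (SE 0.16) and 1.42 (SE 0.14). Igf2bp2 was lower in both experiments (-0.48, SE 0.12, and -0.20, SE 0.07), and Myc in experiment 1 (-0.84, SE 0.16). The Igf2bp2 call of experiment 2 was lost without untagged input replicate 3 (-0.20) or Trim71KO input replicate 3 (-0.19). With library size alone the median of all genes in experiment 1 moved from -0.15 to -0.01, and 7 members were higher and 2 lower as before.

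In cells labelled Ago2KO, 5 of 10 were higher than in untagged cells (15.8% of all genes) and 0 lower (5.11%). These were Mycn at 1.52 (SE 0.14), Igf2bp1 at 0.93 (SE 0.14), Mycl at 0.78 (SE 0.14), Lin28a at 0.74 (SE 0.10) and Lin28b at 0.74 (SE 0.18). Igf2bp3 was at -0.02 (SE 0.09). All of these values share the untagged libraries with the tag-specific comparison. With library size alone the share of called genes that were higher fell from 59.5% to 43.5% for Trim71KO and from 75.6% to 57.3% for Ago2KO in experiment 2 (64.8% with RLE), with the same number of members called in each direction.

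**Figure D4:**
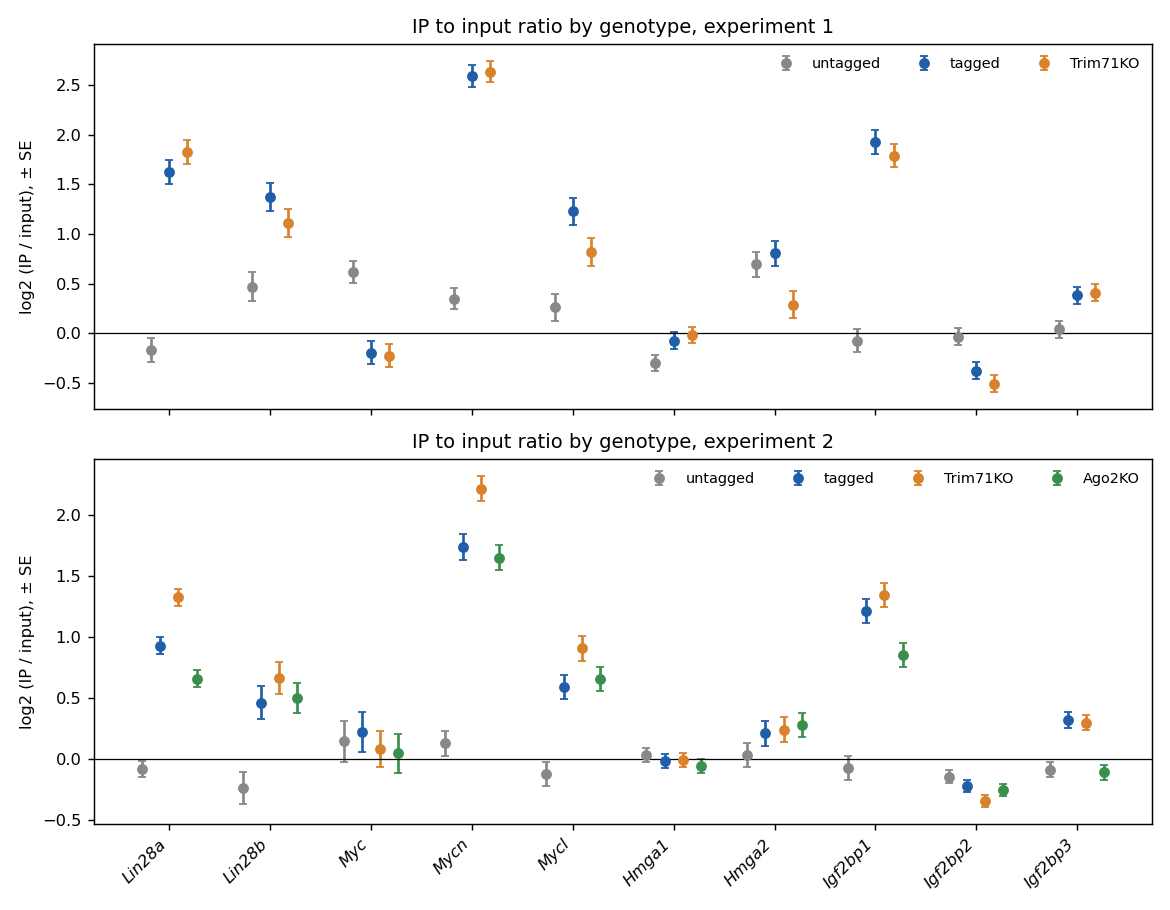
Log2 ratio of IP to input, ± SE, of each of the 10 genes by genotype in experiments 1 and 2. Mycn, Igf2bp1 and Lin28a lie well above untagged cells in every tagged genotype, Myc lies below untagged cells in experiment 1, and Igf2bp3 in cells labelled Ago2KO (-0.11) lies at the untagged level (-0.09).

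RNA levels in the lysate were compared between genotypes to see how the axis itself changed. Cells labelled Trim71KO gave opposite results in the 2 experiments for Lin28a and Myc, which were lower than in tagged cells in experiment 1 and higher in experiment 2. How many of all genes had such opposite calls was not counted. Igf2bp3 was higher in both, by 1.22-fold and 1.21-fold. In experiment 1, 1 of 10 genes was called higher (16.5% of all genes) and 3 lower (17.4%), and in experiment 2, 6 were called higher (13.5%) and 1 lower (13.7%). The share of called genes that were higher in experiment 2 was 49.6% with TMM and 34.6% with library size alone, under which Hmga1 lost its call and the other 6 members kept theirs. In bulk RNA, fewer cells of a type and less RNA per cell cannot be told apart.

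Lin28a fell to 193, 189 and 187 CPM in input labelled Trim71KO of experiment 1, from 258, 275 and 266 CPM, a log2 change of -0.49 (SE 0.12, edgeR adjusted p = 0.0031). In experiment 2 it rose to 310, 305 and 290 CPM from 240, 248 and 221 CPM, a change of 0.35 (SE 0.07, edgeR adjusted p = 0.00027). Neither pair of groups overlapped. Lin28b changed by -0.08 (SE 0.14) and 0.16 (SE 0.13), and passed the test in neither.

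Myc fell from 45.2, 42.3 and 44.2 CPM to 37.4, 34.9 and 31.1 CPM in experiment 1, by 0.35 on the log2 scale (SE 0.12, edgeR adjusted p = 0.022). It rose from 15.5, 11.2 and 13.3 CPM to 29.2, 27.6 and 23.6 CPM in experiment 2, a change of 1.00 (SE 0.16, edgeR adjusted p = 1.9e-05) and the largest of the 10. Both contrasts were free of overlap, and even the raised level of experiment 2 stayed below the lowest input library of experiment 1. The call of experiment 1 was lost without Trim71KO input replicate 2 (-0.37) or replicate 3 (-0.29).

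Mycl went opposite to Myc in experiment 2, from 22.3, 18.5 and 19.3 CPM to 13.6, 11.8 and 12.5 CPM, a change of -0.67 (SE 0.10, edgeR adjusted p = 2.0e-05). Mycn rose there from 115, 114 and 108 CPM to 147, 143 and 158 CPM, by 0.41 (SE 0.10, edgeR adjusted p = 0.0037). In experiment 1 both were called in neither direction, at -0.13 (SE 0.14) for Mycl and -0.17 (SE 0.11) for Mycn. The Myc family thus shifted within itself in experiment 2: the Mycl share of its per-kilobase reads went from 11.3 ± 0.672% to 5.36 ± 0.323% and the Myc share from 11.1 ± 1.45% to 17.0 ± 2.09%, while Mycn stayed at 77.6 ± 2.11% and 77.7 ± 2.30%.

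Hmga2 fell in experiment 1 from 26.2, 21.0 and 20.5 CPM to 15.3, 13.4 and 13.2 CPM, a change of -0.69 (SE 0.13, edgeR adjusted p = 0.00030), and did not pass the test in experiment 2 at -0.06 (SE 0.10, edgeR adjusted p = 0.71). Hmga1 rose in experiment 2 by 0.19 (SE 0.06, edgeR adjusted p = 0.015), with 512, 533 and 483 CPM against 451, 471 and 421 CPM, and the call was lost without tagged input replicate 3 (0.15) or Trim71KO input replicate 2 (0.15). Igf2bp3 rose from 68.1, 58.7 and 60.6 CPM to 80.4, 72.0 and 75.5 CPM in experiment 1 (0.28, SE 0.09, edgeR adjusted p = 0.014) and from 77.6, 77.5 and 86.1 CPM to 89.1, 96.1 and 106 CPM in experiment 2 (0.27, SE 0.06, edgeR adjusted p = 0.0018). Neither pair of groups overlapped, and the call of experiment 1 was lost without tagged input replicate 3 (0.25) or Trim71KO input replicate 1 (0.23). The untagged input of experiment 2 held 87.1, 93.6 and 95.4 CPM of Igf2bp3, which overlapped the input labelled Trim71KO. Tagged input there differed from untagged input by -0.19 (SE 0.06, edgeR adjusted p = 0.15). Igf2bp2 rose in experiment 2 from 206, 211 and 202 CPM to 248, 252 and 259 CPM (0.30, SE 0.05, edgeR adjusted p = 7.7e-05). Its change in experiment 1 was 0.19 (SE 0.08, edgeR adjusted p = 0.084), called higher there by DESeq2 (0.18) and with library size alone (0.24). Igf2bp1 passed in neither experiment, at -0.11 (SE 0.11) and 0.05 (SE 0.10).

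In the joint fit, 6 of the 10 genes differed between the experiments in their response to the Trim71KO label, where 22.8% of all genes did. Experiment 2 minus experiment 1 was 0.84 for Lin28a (SE 0.14, edgeR adjusted p = 4.2e-05), 1.35 for Myc (SE 0.21, edgeR adjusted p = 9.8e-06) and 0.57 for Mycn (SE 0.16, edgeR adjusted p = 0.0067). It was -0.54 for Mycl (SE 0.18, edgeR adjusted p = 0.023), 0.34 for Hmga1 (SE 0.09, edgeR adjusted p = 0.0069) and 0.63 for Hmga2 (SE 0.17, edgeR adjusted p = 0.0057). For Igf2bp3 it was -0.02 (SE 0.10), and for Igf2bp2 0.10 (SE 0.09).

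Markers of other cell types also differed between these inputs. The summed level of 8 primitive endoderm markers was 222 to 327 CPM in tagged input and 163 to 167 CPM in input labelled Trim71KO of experiment 1, with 6 of 8 called lower; in experiment 2 it was 118 to 146 against 112 to 128 CPM, with 5 called lower and 1 higher. The 3 fibroblast markers measured of 6 summed to 30.9 to 32.7 CPM in tagged input and 67.0 to 71.8 CPM in input labelled Trim71KO of experiment 1, with 2 called higher, and to 54.3 to 57.1 against 58.6 to 62.1 CPM in experiment 2, with 1 called higher and 1 lower. Mesoderm and neuroectoderm markers summed to 21.1 to 25.1 against 14.5 to 17.5 CPM in experiment 1 (5 of 6 measured) and to 28.5 to 30.7 against 15.4 to 19.9 CPM in experiment 2 (6 of 6), with 2 called lower and 0 higher in each. Col1a2, Col3a1 and Lum were in neither table. The sum of the 10 stem cell markers was 6936 to 7516 against 7750 to 7916 CPM in experiment 1 and 7493 to 7698 against 8496 to 8782 CPM in experiment 2. Of them, 3 were called higher and 2 lower in experiment 1, and 5 higher and 0 lower in experiment 2. Of the 3 trophoblast markers measured of 5, 1 was called higher and 1 lower in each experiment. The part of these markers in the results on the 10 genes was not tested.

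Cells labelled Ago2KO differed from tagged cells in fewer members. Mycn, Igf2bp2 and Igf2bp3 were higher in input, 3 of 10 where 4.38% of all genes were higher, and 0 were lower, where 2.57% were. Mycn rose to 177, 167 and 164 CPM from 115, 114 and 108 CPM (0.59, SE 0.10, edgeR adjusted p = 0.00043). Igf2bp3 rose by 0.39 (SE 0.06, edgeR adjusted p = 0.00019) and Igf2bp2, at 238, 237 and 240 CPM, by 0.21 (SE 0.05, edgeR adjusted p = 0.013). None of the 3 overlapped the tagged inputs. The Igf2bp2 call was lost without tagged input replicate 3 (0.19) and with library size alone (0.17), under which 51.1% of called genes were higher, against 63% with TMM. The summed primitive endoderm markers were 86.8 to 94.4 CPM, against 118 to 146 CPM in tagged input, with 4 of 8 called lower and 0 higher. Those of mesoderm and neuroectoderm were 34.4 to 37.0 against 28.5 to 30.7 CPM, with 1 of 6 called higher. The 10 stem cell markers summed to 8499 to 8563 against 7493 to 7698 CPM, with 4 called higher and 1 lower. Of the 3 trophoblast markers measured 1 was called lower, and of the 3 fibroblast markers 0 were called. The part of these markers was not tested.

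**Figure D5:**
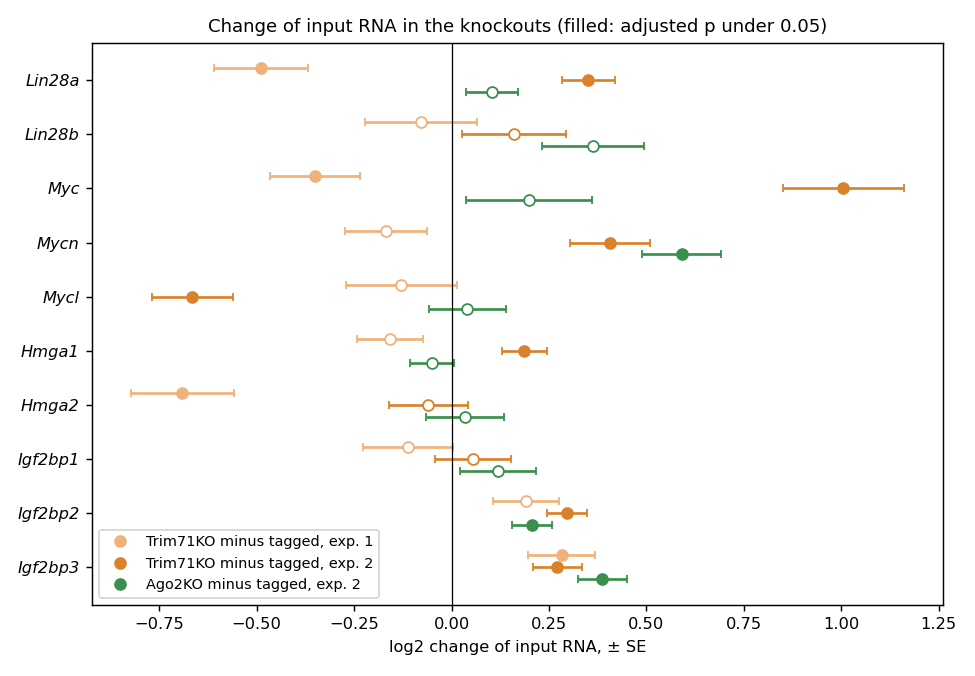
Log2 change of input RNA, ± SE, of each of the 10 genes in cells labelled Trim71KO (both experiments) and Ago2KO (experiment 2), each minus tagged cells; filled points passed an edgeR adjusted p under 0.05. Lin28a and Myc lie on opposite sides of 0 in experiments 1 and 2, and Igf2bp3 lies between 0.27 and 0.39 in all 3 comparisons.

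Against each other, input labelled Trim71KO and input labelled Ago2KO differed in 4 of the 10 genes. Lin28a (0.25, SE 0.07, edgeR adjusted p = 0.0067), Myc (0.81, SE 0.15, edgeR adjusted p = 0.00024) and Hmga1 (0.24, SE 0.06, edgeR adjusted p = 0.0022) were higher in Trim71KO, where 13.2% of all genes were. Mycl was lower (-0.71, SE 0.10, edgeR adjusted p = 9.2e-06), where 15.1% of all genes were. Mycn (-0.18, SE 0.10), Igf2bp2 (0.09, SE 0.05) and Igf2bp3 (-0.11, SE 0.06), all raised over tagged cells in both knockouts of experiment 2, did not pass the edgeR test between them. DESeq2 called Igf2bp2 (0.11), and the fit of only the groups compared called Mycn (-0.17).

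None of the 10 genes passed the test between tagged and untagged cells in input RNA, which does not show that their levels were equal. Between tagged and untagged input, 0 of 10 were called in experiment 1, where 5.69% of all genes were higher and 4.87% lower, and 0 in experiment 2, where 0.809% were higher and 0.581% lower. DESeq2 called 0 in both, and 2 genes in experiment 1 and 3 in experiment 2 had an unadjusted p under 0.05. The largest changes were -0.35 for Mycl (SE 0.14) in experiment 1 and -0.40 for Lin28b (SE 0.13) in experiment 2. In experiment 1, 53.9% of all called genes were higher with TMM and 35.3% with library size alone.

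Of the genes on the 4 pathway lists, 28 of 52 were called in input of cells labelled Trim71KO in experiment 1, 17 of 53 in experiment 2, and 4 of 53 in cells labelled Ago2KO. Over all genes tested, 6377 of 18772, 5383 of 19778 and 1376 of 19778 were called in the same comparisons. The cyclin Ccnd2, a let-7 target, rose by 1.60 (SE 0.19) and 2.11 (SE 0.17) on the log2 scale in cells labelled Trim71KO of experiments 1 and 2, and by 2.00 (SE 0.17) in cells labelled Ago2KO. Nr6a1, an orphan nuclear receptor, fell by 0.73 (SE 0.11) and 1.07 (SE 0.06) in cells labelled Trim71KO. Of the 12 Myc-responsive growth genes, 8 fell and 1 rose in experiment 1, and 4 rose and 2 fell in experiment 2. Their medians were -0.33 and 0.12, and with library size alone 2 rose and 2 fell in experiment 2. Of the Max network, 2 rose and 2 fell in experiment 1 and 0 of 9 were called in experiment 2.

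In the knockouts' IP to input ratios, the lists held 5 calls of 52 with the Trim71KO label in experiment 1, 2 of 53 in experiment 2, and 5 of 53 in cells labelled Ago2KO. Over all genes tested, 703 of 18772, 295 of 19778 and 822 of 19778 were called. Each of the list counts includes Trim71 itself. With the Trim71KO label in experiment 1, Plagl2 (-0.74, SE 0.20), Bach1 (-0.55, SE 0.15), Nras (-0.43, SE 0.10) and Mxi1 (-0.48, SE 0.13) were lower, calls that were all lost with library size alone, and in experiment 2 Nr6a1 was higher (0.56, SE 0.09). In cells labelled Ago2KO, Mxi1 (-1.35, SE 0.12), E2f5 (-1.01, SE 0.14), Tgfbr1 (-0.54, SE 0.14) and Tent2 (-0.52, SE 0.12) were lower. Trim71 itself was lower in both, at -1.75 (SE 0.12) and -1.02 (SE 0.12) with the Trim71KO label and -0.58 (SE 0.12) in cells labelled Ago2KO.

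Genes whose group means ran most like those of a member were sought over the 14 groups, with each experiment centred, among 12769 genes. Mycn ran closest to Tut1 (Pearson r 0.997), Klf2 (0.993) and Lcmt2 (0.991), Lin28a to Mettl2 (0.994), Kbtbd6 and Pdk1 (both 0.991), and Igf2bp1 to Mllt6 (0.998), Atg16l1 (0.997) and Mtrr (0.997). Myc ran closest to Srrt (0.943) and Hmga1 to its copy Hmga1b (0.963). The groups share genotypes and experiments, so these values describe likeness over 14 points and carry no test.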

How the data were processed

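The deposited tables, 1 per experiment, give raw counts of reads for every gene and library and, in further columns, RPKM values, per the file headers. The deposited RPKM values were not used. Reads were processed with bcl2fastq 2.20 and STAR 2.7.3a on GRCm38, per the submitters' processing notes, and the counting tool and its handling of strand and copies are not given in the sources used here. The kit was a stranded total RNA kit, per the labels' protocols, without stated molecular identifiers. Replicates of each of 42 pairs differed by more than sampling noise (chi-square per gene 2.87 to 64.1), so each library counted once.

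Counts were tested with edgeR 4.0.16 (R 4.3.3): TMM, filterByExpr, quasi-likelihood F test, 1 fit per experiment over its groups, and Benjamini-Hochberg adjustment over all 18772 and 19778 genes tested, called under 0.05. SE is the absolute log2 change over the square root of F. On simulated counts with 200 genes changed 2-fold, the Trim71 contrast of the IP to input ratio recovered 91% in experiment 1 (18481 genes) and 92.5% in experiment 2 (19616 genes). Those 200 genes were drawn only from genes with higher counts, and changes smaller than 2-fold were not simulated. Alternatives were RLE scaling, library size alone, no filter, DESeq2 1.42.0, only the groups compared, replicate blocks and each library left out; a joint fit of both experiments was added after the data were seen.

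The members and lists were chosen with earlier results of these data known. Named were the members, Tnrc6a, Trim71 and Ago2 as checks, up to 3 called genes of largest change per list and comparison, and up to 3 genes nearest in pattern. Gene positions and microRNAs are from RefSeq, GRCm38.p6. Same-numbered tagged and Trim71KO libraries of experiment 2 deviated together (r 0.376 to 0.565 in input, 0.401 to 0.429 in IP); for no other pair of genotypes was every r over 0.1 in both fractions. Knockouts share the tagged or untagged libraries they are compared with.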

Additional observations from a re-analysis of the deposited data

Results flagged for a closer look

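For 4 members the IP to input ratio differed between the 2 knockouts of experiment 2 by the test of the difference itself (cells labelled Trim71KO minus Ago2KO, log2 scale). Lin28a differed by 0.67, Mycn by 0.57, Igf2bp1 by 0.49 and Igf2bp3 by 0.41. Against tagged cells, Lin28a changed by 0.40 with the Trim71KO label and by -0.27 with the Ago2KO label. In the same order Igf2bp3 changed by -0.02 and -0.43, and Mycn by 0.48 and -0.09. Of these values only 0.40 for Lin28a and -0.43 for Igf2bp3 passed the edgeR test. Both changes of a gene use the same tagged libraries, and the part of each knockout in the difference was not tested.

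For 2 members the input response to the Trim71KO label differed between the experiments with calls in opposite directions. The share of all genes with opposite calls was not counted, and 22.8% of all genes differed between the experiments in the joint fit. Experiment 2 minus experiment 1 was 0.84 for Lin28a and 1.35 for Myc. Labels give the same genotype in both experiments, and whether the same line was used is not given in the sources used here.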

How the results depend on the processing

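Of 990 values of single members under other settings, 948 kept their direction and their side of the threshold, 21 changed sign without a call in either setting, 9 lost a call, 12 gained one and 0 called values reversed. Of 1440 values with 1 library left out, 1329 kept both, 72 changed sign without a call in either, 30 lost a call and 9 gained one. The number of members called for the Trim71 effect on the IP to input ratio in experiment 2 (1) was 2 with library size alone, 0 without the filter, 0 with only the groups compared, 2 with a replicate block of input and IP of 1 number (which added Mycn, 0.49) and 1 with a replicate block of number within fraction. For the Ago2 effect it was 0 with library size alone; the cause was not tested.

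With 1 library left out, the number of members called ran from 7 to 9 and stayed at 6 for the tag (experiments 1 and 2), from 0 to 1 and 0 to 2 for the Trim71 effect, from 1 to 3 for the Ago2 effect and from 2 to 4 for Trim71KO against Ago2KO. It ran from 9 to 10, 6 to 7 and stayed at 5 for enrichment kept in Trim71KO (both experiments) and Ago2KO. In input it ran from 3 to 4 and 6 to 7 for Trim71KO, 2 to 4 for Ago2KO, 4 to 5 between knockouts and stayed at 0 for the tag. The replicate block within fraction changed 3 other calls: Hmga1 (0.28, lost) and Hmga2 (-0.41, gained) in Trim71KO over untagged cells of experiment 1, and Lin28b (0.37, gained) in Ago2KO input. Whether depth limits the calls of the members with few counts was not tested.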
